A study of Mus musculus with 564 samples.

Results

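Cxcl1, Cxcl2, Cxcl3 and Cxcl5 encode chemokines that attract neutrophils, and the acetylation of histone H3 at lysine 27 (H3K27ac) around these 4 genes was followed in mouse macrophages. Every cis-regulatory element (CRE) whose centre lay within 25 kb of a RefSeq transcription start of 1 of the genes was taken as a member and assigned to the gene with the nearest start, which gave 14 of the 59190 CREs measured. Of these, 4 were assigned to Cxcl1, 3 to Cxcl2, 3 to Cxcl3 and 4 to Cxcl5. The macrophages (BMDMs) were primary cells derived in culture from the bone marrow of wild-type male C57BL/6 mice of 6 to 8 weeks. They were pre-treated for 1 h with DMSO, the solvent, or with a clinical kinase inhibitor (CKI), 58 in all, each used at the concentration set for its intended target, so doses differed between compounds. They were then left untreated (UT) or received 10 ng/mL of lipopolysaccharide (LPS), the bacterial ligand of TLR4, or of interleukin 4 (IL-4) for 30 min, 1 h, 2 h or 4 h. H3K27ac ChIP-seq libraries numbered 564, of which 18 came from DMSO cells in 9 groups of 2 replicates and 546 from CKI-treated cells. No source used here tells whether replicates came from separate cultures or mice, so p-values measure the spread between libraries, which may be technical.

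H3K27ac is deposited at promoters and enhancers in use, and its level tends to follow the activity of the gene nearby. The 4 chemokines are small secreted proteins whose receptor CXCR2 guides neutrophils to infected or injured tissue. Their genes lie side by side in 1 cluster together with Pf4, which encodes platelet factor 4, and TLR4 signaling through NF-kB is known to switch on Cxcl1, Cxcl2 and Cxcl3 within minutes in macrophages. IL-4 acts through STAT6 and drives the alternative activation of macrophages, a program that is antagonistic to many LPS-induced genes.

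All 14 CREs are on chromosome 5 (mm10), and the 4 genes lie on the plus strand in the order Cxcl5, Cxcl3, Cxcl1, Cxcl2, with transcription starts at 90759298, 90786101, 90891245 and 90903899. The CREs are named by their gene and by the distance of their centre from its start. The Cxcl2 promoter CRE (chr5:90902362-90907595) covers the start and exons of Cxcl2, although its centre is 1079 bp past the start. The Cxcl1 promoter CRE (chr5:90889746-90892262) and the Cxcl3 promoter CRE (chr5:90785145-90786940) cover the starts and exons of their genes. Cxcl5 had no CRE at its start. A further 3 CREs overlap exons, namely Cxcl1 +2.7 kb (chr5:90892715-90895202), Cxcl3 +2.2 kb (chr5:90787466-90789102), both in their own gene, and Cxcl5 +12.7 kb (chr5:90770785-90773267), which covers an exon of Pf4 and has its centre 409 bp before the start of that gene. It is called the Pf4 start CRE here, since it belongs to the members by position only. The other 8 CREs are intergenic. They are Cxcl5 -17.1 kb (chr5:90741355-90743116), -13.6 kb (chr5:90744870-90746480) and -11.9 kb (chr5:90746604-90748199), Cxcl3 -2.2 kb (chr5:90783144-90784707), Cxcl1 -15.5 kb (chr5:90873692-90877784) and -9.7 kb (chr5:90880309-90882722), and Cxcl2 -4.7 kb (chr5:90896747-90901670) and +5.3 kb (chr5:90908379-90909941).

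The 250 bases before the start of Cxcl3 (chr5:90785851-90786100), Cxcl1 (chr5:90890995-90891244) and Cxcl2 (chr5:90903649-90903898), taken from RefSeq on build GRCm38.p6, plus strand, are shown because the 3 promoters share short words in the same order and lie inside the 3 promoter CREs. In capitals stand first the 10 letters of a kappaB motif, the site read by NF-kB dimers, and then ATAAAA, the core of a TATA box:
Cxcl3: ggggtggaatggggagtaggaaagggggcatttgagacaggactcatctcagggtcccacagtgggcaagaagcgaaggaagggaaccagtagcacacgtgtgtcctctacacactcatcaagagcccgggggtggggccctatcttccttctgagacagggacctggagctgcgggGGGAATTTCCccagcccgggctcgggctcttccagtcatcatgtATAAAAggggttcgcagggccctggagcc
Cxcl1: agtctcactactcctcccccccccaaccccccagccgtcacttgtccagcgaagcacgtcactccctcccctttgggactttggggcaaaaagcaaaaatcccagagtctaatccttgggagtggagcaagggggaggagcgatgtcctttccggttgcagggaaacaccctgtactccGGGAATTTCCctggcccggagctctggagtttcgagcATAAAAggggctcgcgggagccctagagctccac
Cxcl2: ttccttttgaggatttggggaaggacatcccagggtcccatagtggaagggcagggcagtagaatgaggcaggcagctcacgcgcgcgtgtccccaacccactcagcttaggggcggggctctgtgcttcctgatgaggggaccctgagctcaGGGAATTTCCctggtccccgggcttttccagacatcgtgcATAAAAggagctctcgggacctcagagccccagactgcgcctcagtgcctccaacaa

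Read on both strands, these exact kappaB letters were held by 23 of 27025 RefSeq promoter windows of the same length (0.0851%), among them all 3 chemokine windows. The motif began at position -73 of Cxcl3, -71 of Cxcl1 and -97 of Cxcl2, counted from the transcription start. ATAAAA, whose letters were chosen after the sequences were seen and which 17.6% of all windows hold, began at -29, -34 and -57, which leaves 34, 27 and 30 bases between both words. No window of the 3 held TGANTCA (AP-1), TTGCNNAA (C/EBP) or TTC and GAA spaced by 4 bases (STAT6). In the central 1000 bases of the 14 CREs the kappaB letters were found in 2 (14.3%, against 0.449% of all CREs), namely the Cxcl1 and Cxcl3 promoter CREs, while that of Cxcl2 lies outside the centre of its wide CRE. TGANTCA was found in 8 of 14 (57.1%, against 36.1%), TTGCNNAA in 8 of 14 (against 36.5%) and the STAT6 letters in 3 of 14 (21.4%, against 25.1%). Such matches describe the letters only and are not binding sites.

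Values are normalized reads per CRE on the scale of the deposited table, and differences were tested with limma on log2(value + 5), adjusted over all CREs tested. Where the value of 1 read could be found, the depth in CREs was estimated at 2345581 to 5790502 reads for DMSO and 172746 to 6581857 (median 1978390) for CKI libraries. The contrast of a library, which is the ratio of median values between the top and the bottom 10% of CREs, was 53.0 to 134 in DMSO and 3.34 to 67.2 (median 17.6) in CKI libraries. Over the LPS-called CREs, the deviation of a library from the UT level correlated with the DMSO response at 1 h with r of 0.55 to 0.94 in the 249 LPS libraries, -0.29 to 0.23 in the 75 UT libraries and -0.003 to 0.44 in the 240 IL-4 libraries, so that no LPS library overlapped the others. All 7 macrophage markers had a CRE, with a summed level of 7692 to 7709 in UT, 5620 to 8116 after LPS and 6641 to 7774 after IL-4. Of the 9 neutrophil markers 3 had a CRE, with a sum of 331 to 344 in UT, 461 to 1042 after LPS and 423 to 536 after IL-4. Csf3r, the G-CSF receptor, gave 308 to 333 in UT and 405 to 836 after LPS, S100a8 7 to 18 and 3 to 35, and Camp 4 to 5 and 36 to 171. None of the B cell and T cell markers had a CRE, and of the fibroblast markers only Col1a1 had 1, with a median of 5.

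LPS raised H3K27ac at most CREs of Cxcl1, Cxcl2 and Cxcl3 by 1 h and at Cxcl5 -13.6 kb, and lowered it at Cxcl5 -17.1 kb, Cxcl5 -11.9 kb and the Pf4 start and, at 4 h, at the Cxcl3 promoter. Of the 14 CREs 12 were called over the LPS time course (adjusted p under 0.01 in an F-test and a log2 difference over 1 at 1 time or more), beside 53.5% of all CREs. The difference largest in size was positive at 8 (all CREs 29.0%) and negative at 4 (24.6%). Its median over the 14 CREs was 1.56, beside 0.37 over all CREs tested. The calls shifted from rises to falls with time. Higher calls numbered 8 at 30 min (16.3% of all CREs), 9 at 1 h (19.6%), 5 at 2 h (21.3%) and 1 at 4 h (20.5%). Lower calls numbered 1 (13.1%), 2 (15.1%), 2 (19.7%) and 4 (15.8%) at the same times. The median log2 difference of the 14 CREs was 1.12, 1.54, 0.47 and -0.20 at the 4 times, beside 0.05, 0.09, 0.02 and 0.08 over all CREs.

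**Figure D1:**
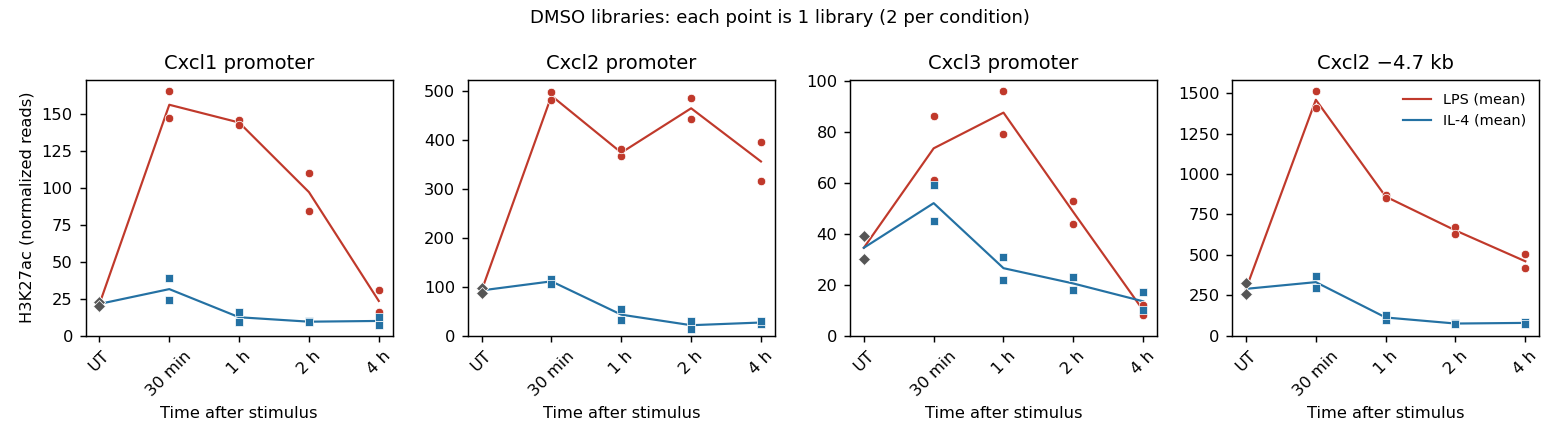
H3K27ac in normalized reads (vertical axis, from 0) against time after the stimulus (horizontal axis, UT to 4 h) in DMSO cells at the Cxcl1, Cxcl2 and Cxcl3 promoters and at Cxcl2 -4.7 kb; each point is 1 library, lines join the means of 2 libraries after LPS (red) and IL-4 (blue), and grey diamonds are UT. After LPS the Cxcl2 promoter stays at 316 or more from 30 min to 4 h, while at 4 h the Cxcl1 promoter overlaps UT and the Cxcl3 promoter lies below it.

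Cxcl2, also known as MIP-2, had the promoter that was still higher at 4 h. This CRE held 97 and 88 normalized reads in the 2 UT libraries, 498 and 481 at 30 min of LPS, 367 and 380 at 1 h, 485 and 443 at 2 h, and 395 and 316 at 4 h. Each LPS library lay above both UT libraries. The log2 difference was 2.34 ± 0.14 (SE, adjusted p = 3.29e-16) at 30 min and still 1.88 ± 0.14 (adjusted p = 5.55e-14) at 4 h. Between consecutive times no step of the Cxcl2 promoter passed the adjusted p of 0.01 (30 min to 1 h -0.39, adjusted p = 0.0334, 1 h to 2 h 0.31, adjusted p = 0.0971, 2 h to 4 h -0.39, adjusted p = 0.0503). Cxcl2 -4.7 kb, in the intergenic stretch between Cxcl1 and Cxcl2, had the highest level of the 14 CREs at each LPS time, with 324 and 256 in UT, 1407 and 1511 at 30 min, 870 and 851 at 1 h, 672 and 630 at 2 h, and 503 and 418 at 4 h. It also lay above UT in every LPS library, but unlike the promoter it fell at each later step, by 0.76 (adjusted p = 3.57e-06), 0.40 (adjusted p = 0.00765) and 0.50 (adjusted p = 0.00202) on the log2 scale. Cxcl2 +5.3 kb was low, at 23 and 11 in UT and 11 to 39 after LPS, and was not called (F-test adjusted p = 0.0726).

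Cxcl1, known as KC, was raised at its promoter from 30 min to 2 h and overlapped UT at 4 h. Its promoter CRE held 23 and 20 in UT, 165 and 147 at 30 min, 146 and 142 at 1 h, 110 and 84 at 2 h, and 16 and 31 at 4 h. UT and LPS did not overlap up to 2 h and overlapped at 4 h. The log2 difference was 2.60 ± 0.25 (adjusted p = 8.7e-11) at 30 min, 2.49 at 1 h and 1.94 at 2 h, and 0.06 (adjusted p = 0.869) at 4 h. The fall from 2 h to 4 h was -1.88 ± 0.25 (adjusted p = 1.35e-06). Cxcl1 -15.5 kb rose from 177 and 214 in UT to 604 and 601 at 1 h (1.61 ± 0.15) and was at 183 and 127 at 4 h (-0.34, adjusted p = 0.0439). Cxcl1 +2.7 kb, inside the gene, went from 30 and 18 to 98 and 98 at 1 h (1.86 ± 0.27). Cxcl1 -9.7 kb moved from 163 and 159 to 307 and 327 at 1 h without overlap, and at 0.96 ± 0.15 it stayed just under the fold of the call.

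Cxcl3, the third CXCR2 ligand of the cluster, rose at its promoter and then fell below UT. The Cxcl3 promoter CRE held 39 and 30 in UT, 86 and 61 at 30 min, 96 and 79 at 1 h, 53 and 44 at 2 h, and 8 and 12 at 4 h. It lay above both UT libraries up to 2 h and below both at 4 h. At 1 h the log2 difference was 1.23 ± 0.28 (adjusted p = 0.000348), at 2 h 0.44 (adjusted p = 0.175) and at 4 h -1.40 ± 0.28 (adjusted p = 6.54e-05), which made it 1 of the 4 CREs counted as lower. The CREs beside it rose at 1 h, Cxcl3 -2.2 kb from 23 and 21 to 82 and 64 (1.52 ± 0.31) and Cxcl3 +2.2 kb from 11 and 15 to 64 and 53 (1.82 ± 0.31). Neither was below UT by the test at 4 h (-0.48 and 0.22). Between consecutive LPS times the calls went down, with 1 CRE lower from 30 min to 1 h (8.14% of all), 6 from 1 h to 2 h (9.70%) and 6 from 2 h to 4 h (3.31%). These counts rest on single libraries in part. From 30 min to 1 h 2 were called without replicate 1 at 30 min or without either replicate at 4 h. From 1 h to 2 h 1 and 3 were called without replicate 1 or 2 at 1 h and 2 without either replicate at 2 h, and from 2 h to 4 h 3 without replicate 1 at 2 h.

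Cxcl5, which encodes the epithelial and stromal chemokine LIX, had 3 CREs upstream of its start, which took different courses. Cxcl5 -13.6 kb rose from 24 and 20 in UT to 115 and 74 at 1 h of LPS (1.85 ± 0.32) and was at 11 and 10 at 4 h. Cxcl5 -17.1 kb fell from 189 and 148 in UT to 28 and 29 at 2 h and 38 and 8 at 4 h (-2.87 ± 0.32). Cxcl5 -11.9 kb was at 72 and 49 in UT, 65 and 48 at 1 h, and 13 and 8 at 4 h (-2.08 ± 0.33). At 4 h all 3 were below both UT libraries, and by the test -17.1 kb and -11.9 kb were lower. The Pf4 start CRE, the strongest member in UT, fell without a turn from 628 and 606 to 244 and 276 at 30 min, 165 and 220 at 1 h, 89 and 70 at 2 h, and 37 and 38 at 4 h, where the difference was -3.87 ± 0.18 (adjusted p = 1.94e-19). Every LPS library was below both UT libraries there.

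Per kb of CRE, which sets the promoters on 1 scale, the UT means were 19.2 normalized reads at Cxcl3, 17.7 at Cxcl2 and 8.54 at Cxcl1. The libraries of Cxcl3 and Cxcl2 overlapped in UT and those of Cxcl1 lay below both. At 30 min of LPS the order was Cxcl2 with 93.5, Cxcl1 with 62.0 and Cxcl3 with 40.9 per kb, with no overlap between neighbours. At 4 h Cxcl2 was at 67.9 per kb, apart from Cxcl1 with 9.34 and Cxcl3 with 5.57, which overlapped. In the 9 DMSO group means the log2 levels of the Cxcl1 and Cxcl2 promoters had a Pearson r of 0.88, Cxcl1 and Cxcl3 0.83, and Cxcl2 and Cxcl3 0.53. These are descriptions over 9 conditions of the same libraries.

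**Figure D2:**
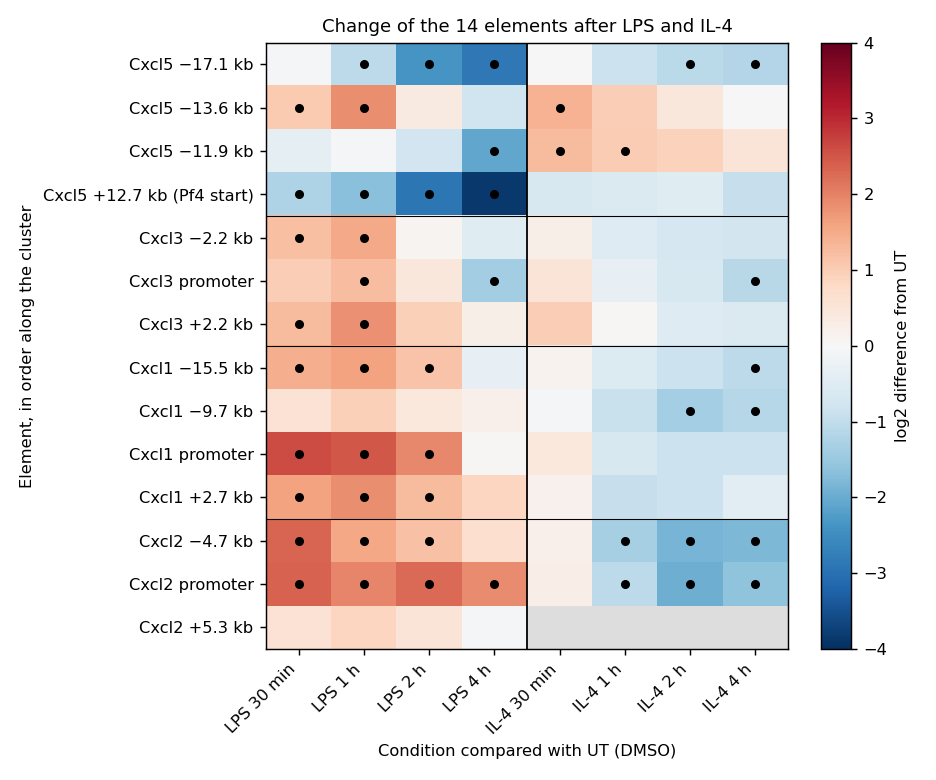
Log2 difference from UT in DMSO cells (colour, red higher and blue lower) of the 14 CREs in genome order (rows) at 4 times of LPS and of IL-4 (columns); a black dot marks an adjusted p under 0.01 with a difference over 1, and grey marks a CRE too low to test. Red fills the Cxcl3, Cxcl1 and Cxcl2 rows at 30 min and 1 h of LPS, and blue the Pf4 start row at all LPS times and the rows of the Cxcl2 promoter and Cxcl2 -4.7 kb from 1 h of IL-4.

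IL-4 lowered acetylation at several of the CREs that LPS raised, with a delay. Of the 13 CREs with enough signal in these libraries (Cxcl2 +5.3 kb was left out by the filter on low values), 8 were called, beside 24.7% of all CREs, with the largest difference positive at 2 (13.6%) and negative at 6 (11.0%). Its median over the 13 CREs was -0.94, beside 0.21 over all CREs tested. Higher calls by limma numbered 2 at 30 min (10.9% of all CREs), 1 at 1 h (9.46%), 0 at 2 h (8.69%) and 0 at 4 h (8.61%), and lower calls 0 (1.96%), 2 (4.61%), 4 (8.66%) and 6 (6.38%). At an unadjusted p under 0.05 in limma, 3, 2, 1 and 1 of 13 were higher at the 4 times and 1, 7, 9 and 9 lower. The share of all CREs at this threshold was not taken. The median difference of the 13 CREs was 0.22, -0.59, -0.86 and -0.91 at the 4 times.

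The Cxcl2 promoter held 116 and 106 normalized reads at 30 min of IL-4, 32 and 54 at 1 h, 30 and 13 at 2 h, and 24 and 30 at 4 h, against 97 and 88 in UT. It was above both UT libraries at 30 min (0.25, adjusted p = 0.521) and below both from 1 h on, with a difference of -1.06 (adjusted p = 0.00141) at 1 h and -1.96 ± 0.27 (adjusted p = 4.74e-08) at 2 h. Cxcl2 -4.7 kb followed the same course, from 324 and 256 in UT to 369 and 294 at 30 min, 99 and 127 at 1 h, 80 and 71 at 2 h, and 88 and 71 at 4 h (at 2 h -1.87 ± 0.17, adjusted p = 1.91e-13). Cxcl1 -15.5 kb was at 88 and 95 at 4 h (-1.05 ± 0.17) and Cxcl1 -9.7 kb at 57 and 62 at 2 h (-1.36 ± 0.18), both below their UT libraries. The Cxcl1 promoter, at 23 and 20 in UT, was already low and held 10 and 9 at 2 h, a difference of -0.87 ± 0.36 (adjusted p = 0.0449) that was not called. The Cxcl3 promoter went from 39 and 30 through 45 and 59 at 30 min to 10 and 17 at 4 h (-1.11 ± 0.31, adjusted p = 0.0033).

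At the Cxcl5 end IL-4 raised 2 CREs early. Cxcl5 -11.9 kb went from 72 and 49 in UT to 163 and 139 at 30 min (1.27 ± 0.19), 122 and 127 at 1 h, 99 and 137 at 2 h, and 86 and 90 at 4 h, all above UT. Cxcl5 -13.6 kb went from 24 and 20 to 59 and 73 at 30 min (1.39 ± 0.28) and was at 20 and 24 at 4 h. Cxcl5 -17.1 kb, the outermost, fell to 83 and 61 at 4 h (-1.18 ± 0.18). The Pf4 start CRE was at 386 and 274 at 4 h, below both UT libraries, and its -0.91 ± 0.11 did not reach the fold of the call.

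Set against each other at matched times over all 18 DMSO libraries, LPS and IL-4 differed at 13 of 14 CREs, beside 58.4% of all CREs, with the largest difference toward LPS at 10 (29.2% of all) and toward IL-4 at 3 (29.2%). The Cxcl2 promoter at 2 h differed most, by 4.22 ± 0.22, followed by the Cxcl1 promoter at 1 h (3.12 ± 0.31) and Cxcl2 -4.7 kb at 2 h (3.03 ± 0.14). Toward IL-4 the largest were the Pf4 start CRE (-2.96 ± 0.16) and Cxcl5 -11.9 kb (-2.60 ± 0.28), both at 4 h. Cxcl5 -13.6 kb, which rose early after both stimuli, was the CRE not called (0.86 ± 0.30 at 1 h). By the largest difference in each course, the Cxcl2 promoter, Cxcl2 -4.7 kb and Cxcl1 -15.5 kb went up with LPS and down with IL-4, Cxcl5 -11.9 kb was lower after LPS and higher after IL-4, and the Cxcl3 promoter and Cxcl5 -17.1 kb were lower after both. The 2 time courses share the UT libraries, so only the direct comparison above tests a difference between stimuli.

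Genes of the pathway from TLR4 to NF-kB were followed at their starts, as lists, over the same LPS course. Of 7 genes for NF-kB subunits and nuclear IkB proteins 5 were higher after LPS, beside the 29.0% of all CREs given above, including the subunit genes Relb (1.96), Nfkb1 (1.84) and Nfkb2 (1.67) and Nfkbiz (1.70), which encodes a nuclear IkB protein. Of the feedback inhibitors and mRNA decay factors, 5 of 5 with a CRE centred at the start were higher, among them Nfkbib (2.46), Tnfaip3, which encodes the deubiquitinase A20 (2.25), Nfkbie (2.17) and Tnip1 (1.68). With CREs that overlap the start but are centred further away it was 7 of 8, and Zfp36, which encodes a protein of mRNA decay, was not called (0.37). Of the TLR4 signal transducers 5 of 17 were higher, a share near that of all CREs, among them the kinase gene Ikbkb (2.01), Tab2 (1.71) and the adaptor gene Ticam1 (1.56), and 1 lower, Tlr4 itself (-1.09). These list medians were 1.67, 2.17 and 0.63. Among the other CXC chemokines 1 of 2 tested was higher (Cxcl16, 1.03) and 1 lower (Cxcl14, -1.39), and Cxcl10, whose CRE overlaps its start with the centre further away, was higher (4.28). Of the receptors Cxcr2, to which the members bind, had a CRE and was higher after LPS (1.31) and after IL-4 (1.59). After IL-4, where 13.6% of all CREs were higher, the calls were 1 of 7 genes of NF-kB and nuclear IkB proteins (Nfkb1, 1.33) and 1 of 5 inhibitors (Tnfaip3, 1.15). By limma 0 of 17 TLR4 signal transducers were called after IL-4, beside 24.7% of all CREs, and 9 had an unadjusted p under 0.05. How many of all CREs passed that unadjusted threshold was not taken, so the 9 cannot be set against them.

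Marker genes of neutrophils and of macrophages moved in the same libraries. Camp, a gene of neutrophil granules, was higher after LPS (3.97), from 4 and 5 normalized reads in UT to 36 to 171, and Csf3r was higher as well (1.35), 2 of the 3 neutrophil markers with a CRE. Of the macrophage markers 3 of 4 with a CRE centred at the start, and 5 of 7 with those overlapping it, were lower by the largest difference (24.6% of all CREs), among them Mertk (-2.30) and Itgam (-2.21). Not all LPS libraries lay below UT at these markers. Over all LPS times together Fcgr1 ranged from 193 to 1277, against 632 and 650 in UT. Cd68 ranged from 473 to 1893, against 1546 and 1557. In the same macrophage list Adgre1 (0.82 at 1 h) and Spi1 (0.26 at 4 h) were higher by the largest difference and were not called. In bulk chromatin a change in the share of a cell type and a change within cells cannot be told apart, and the part of these markers in the chemokine values was not tested.

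By the correlation of log2 levels over the 9 DMSO conditions, among 11534 CREs centred within 1 kb of a protein-coding start, the profile most like the Cxcl2 promoter was that of Clec4e (r = 0.992), followed by 4930523C07Rik, Gm6377, Msr1 and Nfkbiz (r = 0.979). Clec4e encodes the lectin Mincle and Msr1 a scavenger receptor. For the Cxcl1 promoter the list was Tubb4a (r = 0.988), Desi2, Ankrd33b, Dennd4a and Slc39a8 (r = 0.968). For the Cxcl3 promoter it was Niban1 (r = 0.948), Sh3bgrl2, Hspbap1, Smc6 and Fmn1 (r = 0.921). No gene was on 2 of these lists. The correlation does not measure the size of a change, and low CREs were not left out. On the scale of log2(value + 5) Tubb4a went from 3.61 in UT to 4.61 at 30 min of LPS, and Hspbap1 from 8.32 to 8.51.

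**Figure D3:**
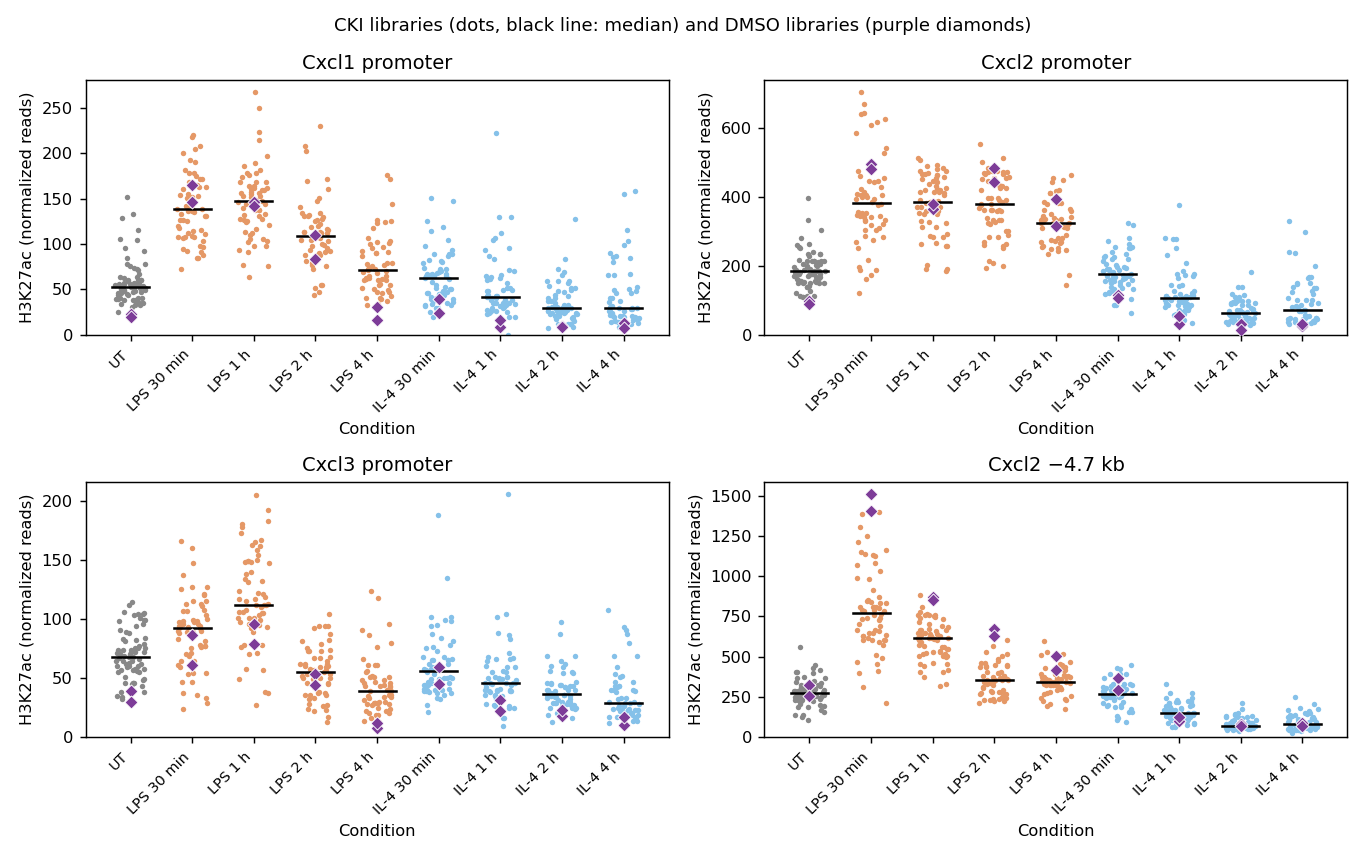
H3K27ac in normalized reads (vertical axes, from 0) in each CKI library (dots, grey UT, orange LPS, blue IL-4) with their median (black line) and in the 2 DMSO libraries (purple diamonds) of each condition (horizontal axis). All 73 UT libraries of CKIs lie above DMSO at the Cxcl2 promoter, and all 62 at 30 min of LPS lie below DMSO at Cxcl2 -4.7 kb.

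Under the CKIs the LPS response of the Cxcl1 and Cxcl2 promoters kept its direction in most compounds up to 2 h, with medians below the DMSO change. Each CKI condition was set against UT of the same compound, mostly with 1 library each and so with no replicate error of its own. The Cxcl2 promoter was higher than in its own UT in 56 of 58 CKIs at 30 min of LPS, 55 of 57 at 1 h, 53 of 55 at 2 h and 53 of 55 at 4 h. Over all pairs of CRE and CKI 51.1%, 51.2%, 50.3% and 49.7% were higher. The median change was 1.03 at 30 min, with a range of -0.49 (AMG208) to 2.07 (Pimasertib), against 2.34 in DMSO. The Cxcl1 promoter was higher in 57 of 58 at 30 min (median 1.32, DMSO 2.60), 57 of 57 at 1 h and 50 of 55 at 2 h, and in 35 of 55 at 4 h (median 0.37). The Cxcl3 promoter was higher in 42 of 58 at 30 min (median 0.38) and 51 of 57 at 1 h (0.74), and lower in 46 of 55 at 4 h (-0.69). Cxcl2 -4.7 kb was higher in 57 of 58 at 30 min (median 1.44), and the CKI with a lower value was PH797804, whose 30 min library had an estimated 172746 reads, the fewest of all libraries. The Pf4 start CRE was lower than in its own UT in all CKIs measured at each LPS time (58, 57, 55 and 55).

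**Figure D4:**
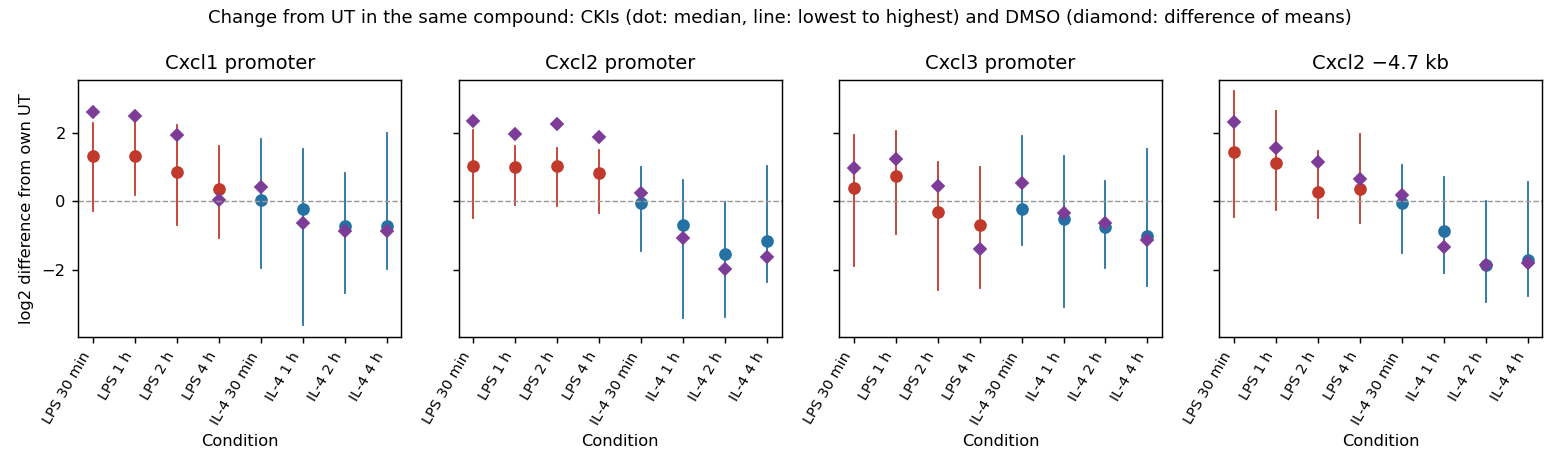
Log2 difference from UT of the same compound (vertical axis) at each condition (horizontal axis) for the CKIs (dots, median; lines, lowest to highest) and DMSO (diamonds, difference of means) at the 3 promoters and Cxcl2 -4.7 kb. At the Cxcl2 promoter the DMSO change of 2.34 at 30 min of LPS lies above the CKI median of 1.03 and above the highest CKI value of 2.07.

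After IL-4 the Cxcl2 promoter was lower than in its own UT in 56 of 56 CKIs at 2 h (median -1.54, DMSO -1.96), with 50.2% of all pairs of CRE and CKI lower. Cxcl2 -4.7 kb was lower in 55 of 56 (median -1.84, DMSO -1.87). The Cxcl1 promoter was lower in 43 of 56 and the Cxcl3 promoter in 48 of 56 at the same time. Cxcl5 -11.9 kb was higher than in its own UT in 54 of 58 at 30 min (median 0.61, DMSO 1.27). Within the same CKI the Cxcl2 promoter was higher after LPS than after IL-4 in 57 of 58 at 30 min, 56 of 57 at 1 h, 55 of 55 at 2 h and 51 of 52 at 4 h, and Cxcl5 -11.9 kb was higher after IL-4 in 55 of 58, 50 of 57, 54 of 55 and 51 of 52. Over all pairs 45.6%, 46.7%, 49.8% and 47.8% were higher after LPS.

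Levels in CKI libraries differed from DMSO before any stimulus. The Cxcl2 promoter held 110 to 397 normalized reads (median 184) in the 73 UT libraries of CKIs, and all 73 were above the 97 and 88 of DMSO. The Cxcl1 promoter held 22 to 152 (median 53) and the Cxcl3 promoter 32 to 114 (median 68). At 30 min of LPS the Cxcl2 promoter held 120 to 707 (median 384), and 50 of 62 CKI libraries were below both DMSO libraries. Cxcl2 -4.7 kb held 212 to 1402 (median 773.5) at 30 min, and all 62 were below both DMSO libraries. At 2 h of IL-4 the Cxcl2 promoter held 28 to 182 (median 63.5), and 57 of 58 were above both DMSO libraries. All CKI libraries are set against the same few DMSO libraries here, which had a higher contrast between strong and weak CREs than nearly all CKI libraries, so an effect of the compounds and this difference between libraries cannot be told apart.

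To set each CKI against DMSO over time, limma was given factors for time and compound. A CKI was called at a CRE at an adjusted p under 0.05 and a log2 difference from DMSO over 0.5. Each CKI had 1 coefficient for UT and all times of a stimulus together, so offsets of opposite sign can cancel. At the Cxcl2 promoter all 73 UT libraries of CKIs lay above both DMSO libraries. At 30 min of LPS 50 of 62 lay below both and 11 above, so few calls there do not show that levels were alike. Over the LPS and UT libraries 198 of 812 pairs of CKI and member CRE were called, 24.4%, beside 36.4% of all pairs, with 142 higher (all pairs 32.3%) and 56 lower (4.04%). Of the 56 lower calls 36 were at Cxcl2 -4.7 kb. The higher calls included 33 at the Cxcl3 promoter and 22 at the Cxcl1 promoter. After quantile normalization, which gives all libraries 1 distribution of values, 26 pairs were called, 13 in each direction, against 4.62% of all pairs, and the Cxcl2 promoter then had 6 higher calls in place of 3 lower ones. Over the IL-4 and UT libraries 307 of 812 pairs were called, beside 39.2% of all pairs, 285 higher (36.2%) and 22 lower (3.03%). Of the higher calls 55 were at the Cxcl2 promoter and 46 at the Cxcl1 promoter. After quantile normalization 73 pairs were called, beside 6.54% of all pairs, with 24 and 5 at these promoters. In UT libraries 145 pairs were called, beside 11.9% of all, with 117 higher (10.3%) and 28 lower (1.62%) (46 pairs without replicate 2 and 77 without replicate 1 of DMSO), 35 after quantile normalization and 20, of which 1 was lower, without the libraries with the suffix b. Of all pairs 1.76% were called in UT after quantile normalization. Most CKIs have 1 UT library, whose spread was taken from the groups with 2 libraries, so a lone library is assumed to vary like those.

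At the Cxcl2 promoter the lowest coefficients over the LPS and UT libraries were those of AMG208 (-0.72 ± 0.17, adjusted p = 0.000223), Omipalisib (-0.71 ± 0.17, adjusted p = 0.000115) and Vatalanib (-0.51 ± 0.17, adjusted p = 0.00646), and the highest that of Tofacitinib (0.42 ± 0.17, adjusted p = 0.149). The 3 low ones stand in the same run of compounds in the column order of the table and had the 5th, 1st and 6th lowest median contrast of the 58 CKIs. At the Cxcl1 promoter the highest were Losmapimod (1.22 ± 0.24, adjusted p = 4.07e-06), PH797804 (1.09 ± 0.23, adjusted p = 2.53e-05) and Apitolisib (1.00 ± 0.22, adjusted p = 6.56e-05). As a change from UT in place of a level these 3 turned to -0.79, -0.23 and -0.57. Against the other CKIs of their own runs they were at 0.50, 0.62 and 0.26, and only PH797804 was called. The lowest, Apatinib (0.08), MK2206 (0.09) and AC480 (0.11), were not called. Over all CREs tested the median coefficient was 0.71, 0.52 and 0.58 for the 3 highest, and 0.42, 0.33 and 0.33 for the 3 lowest. At the Cxcl3 promoter the highest were Apitolisib (1.19 ± 0.25), Momelotinib (1.08 ± 0.25) and AZD2014 (1.08 ± 0.26), of which the first 2 turned to -0.31 and -0.088 as a change from UT, and the lowest MK2206 (-0.43 ± 0.28, adjusted p = 0.261), Telatinib (-0.15) and AMG208 (-0.12).

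Under IL-4 and UT the Cxcl2 promoter was highest with Neratinib (2.04 ± 0.28), Silmitasertib (1.95 ± 0.27) and SGI1776 (1.72 ± 0.27), and lowest with Refametinib (0.67), PF04691502 (0.68) and Pimasertib (0.73). The 3 highest stand in the same run of compounds in the column order. Against the other CKIs of that run they were at 0.54, 0.44 and 0.18, none of them called. Pimasertib stands in that run too and was called at -0.92 against it. Over all CREs tested the median coefficient was 0.75, 0.83 and 0.60 for the 3 highest, and 0.23, 0.40 and 0.56 for the 3 lowest. The Cxcl1 promoter ranged from MK2461 (0.34), Midostaurin (0.58) and GSK461364 (0.60) to PH797804 (1.97), Afatinib (2.17) and Silmitasertib (2.19 ± 0.31). The Cxcl3 promoter ranged from GSK461364 (0.06), Pimasertib (0.20) and Refametinib (0.23) to Lenvatinib (1.24), MK5108 (1.26) and Silmitasertib (1.30 ± 0.27). In UT the ends were Omipalisib (0.24), PF04691502 (0.25) and Apatinib (0.26) against Neratinib (1.55), Silmitasertib (1.56) and Talmapimod (2.05 ± 0.26) at the Cxcl2 promoter. At the Cxcl1 promoter they were Ruxolitinib (0.41), Selumetinib (0.44) and AMG208 (0.52) against Talmapimod (2.18), Neratinib (2.34) and Tanzisertib (2.38 ± 0.50), and at the Cxcl3 promoter Afatinib (-0.08), X396 (-0.009) and Telatinib (0.03) against GDC0994 (1.47), Neratinib (1.50) and IMD0354 (1.60 ± 0.38). Over all CREs tested in UT the median was 0.35 for Omipalisib, 0.50 for PF04691502 and 0.75 for Apatinib. It was 0.76 for Neratinib, 0.71 for Silmitasertib and 1.07 for Talmapimod.

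By a rule chosen after the values were seen, calls were kept that held against DMSO, after quantile normalization, against the mean of all compounds and against the other CKIs of the same run. This left 2 pairs over the LPS and UT libraries, 10 over the IL-4 and UT libraries and 9 in UT. The rule was applied to member CREs only, so whether these counts exceed those of other CREs is not known. The 2 under LPS were PH797804 at the Cxcl1 promoter (0.58 against the mean of all compounds, but -0.23 as a change from UT) and Omipalisib at Cxcl5 -13.6 kb (-1.22 ± 0.35 against DMSO, -1.50 against the mean). Under IL-4 they included PH797804 at the Cxcl1 promoter (0.74 against the mean of all compounds). They also included lower levels at the Pf4 start CRE with BGT226 (-0.95 against DMSO, -0.63 against the mean), Omipalisib (-1.13 and -0.805) and Pimasertib (-1.03 and -0.71). At this CRE all 73 UT libraries of CKIs lay below both DMSO libraries. In UT they included, against DMSO, Talmapimod at the Cxcl2 promoter (2.05), at Cxcl2 -4.7 kb (0.95) and at Cxcl1 +2.7 kb (2.89), and BMS911543 at Cxcl2 -4.7 kb (-1.22). Leaving out the libraries with the suffix b was not part of the rule. Most of the falls kept in UT were not called in that fit, which had fewer libraries. The Talmapimod values in UT rest on 1 library, with an estimated 700086 reads and a contrast of 7.02, in which the Cxcl2 promoter held 397, the Cxcl1 promoter 115 and the Cxcl3 promoter 38. Its median difference from DMSO over all CREs tested was 1.07, above the 0.95 at Cxcl2 -4.7 kb.

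CKIs with the same designated target were compared with all other CKIs at the 3 promoters over the LPS and UT libraries. In the paper the dose of each followed its intended target, which can differ from the designated target. Apitolisib, here in the PI3K and mTOR group, was dosed for JAK1, so a group result does not measure inhibition of the named kinase. The comparison took 15 two-sided permutation tests of 5 target groups with 100000 resamples each. Among these, the 4 inhibitors of the MAP kinase p38 at the Cxcl1 promoter passed an adjusted p of 0.05. Their mean coefficient was 0.89 ± 0.34 (SD), and that of the 54 remaining CKIs 0.49 ± 0.23, which differ by 0.40 (permutation p = 0.00186, adjusted p = 0.0279). Losmapimod (1.22), PH797804 (1.09) and Talmapimod (0.77) were above the mean of the others and VX702 (0.47) was below it. The difference was 0.42 without the shallow 30 min LPS library of PH797804 (permutation test, adjusted p = 0.0208) and 0.35 within the runs of compounds (permutation test, adjusted p = 0.0337), and after quantile normalization it was 0.32 (permutation test, adjusted p = 0.111). As a change from UT in place of a level it was -0.16 (permutation test, adjusted p = 0.632). The median contrast of the UT and LPS libraries was 6.88 for PH797804, 9.90 for Losmapimod, 20.2 for Talmapimod and 31.5 for VX702, and its part in the result was not tested. The 7 PI3K and mTOR inhibitors were lower than the others at the Cxcl2 promoter by 0.23, with a permutation p of 0.0316 that did not pass adjustment (0.237). For the JAK, MEK and ERK, and ERBB groups the differences at the 3 promoters lay between -0.08 and 0.23, with adjusted p-values of 0.547 to 0.969 in these permutation tests. As a change from UT the 6 ERBB inhibitors were lower than the others at the Cxcl1 promoter by a difference of -0.56 (permutation p = 0.00335, adjusted p = 0.0502), with 0 of 6 above the mean of the others.

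**Figure D5:**
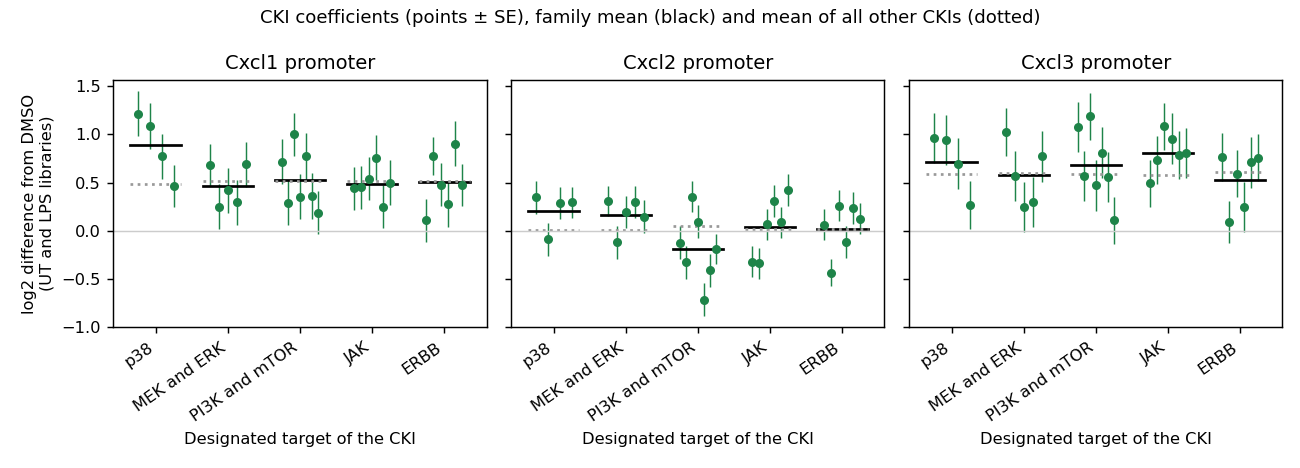
Coefficient of each CKI against DMSO over the UT and LPS libraries (vertical axis, log2; points with SE) by designated target (horizontal axis) at the 3 promoters, with the mean of the group (black line) and of all other CKIs (dotted line). At the Cxcl1 promoter the p38 group has a mean of 0.89 against 0.49, with VX702 at 0.47 at the level of the others.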

How the data were processed

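H3K27ac ChIP-seq of mouse BMDMs was deposited as 1 table of 59190 ATAC-defined elements by 564 libraries. According to the methods, the authors took off adapters, cut the single-end reads to 51 bp, aligned them to mm10 with ShortStack, counted reads around ATAC peaks and scaled libraries by invariant peaks. Submitters' processing notes also name Bowtie and SAMtools, with no version. The deposited values are therefore normalized read counts rounded to whole numbers, entered here as a score, so no count model was used. Reads per library were estimated from the step between values, which could be found for 553 of 564 libraries.

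Groups came from the labels. The UT libraries are called 4 h in 1 label and 0 h in the titles. Differences were tested on log2(value + 5) with limma 3.58.1 (R 4.3.3, moderated tests with an intensity trend, Benjamini-Hochberg adjustment over all elements with a mean of at least 10), a scale that understates changes of low elements. DMSO courses used UT and 1 stimulus (10 libraries) and the LPS against IL-4 comparison all 18. Calls at single times needed a difference over 1 in size beside the adjusted p under 0.01, while a step between consecutive times needed that p alone. CKIs were fitted with time and compound as factors. Target groups were compared by permutation (100000 resamples, two-sided, seed 7). Python 3.11.15, numpy 2.4.6, pandas 2.3.3 and matplotlib 3.10.9 served for the rest. The tests were checked on simulated data.

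All elements centred within 25 kb of a start are described. Promoter elements are those nearest the start within 1 kb, or else overlapping it. The named CKIs are the 3 lowest and 3 highest at each promoter and the members of a target group under discussion. List genes are represented by the element centred within 1 kb of their start, with at most 4 named per list by the size of the difference. Other names, such as the calls held under 4 references, were chosen after their values were seen. Members and lists were chosen with earlier results of these data known. Of the 4 members 3 had a promoter sequence in the RefSeq table. Between 0 and 7.53% of the 51-base words of a member element occur more than once in the genome. Alternatives were pseudocounts of 1 and 20, no filter, quantile normalization, other thresholds, references and sets of libraries, a replicate block and the change from UT.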

Additional observations from a re-analysis of the deposited data

Results flagged for a closer look

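Effects of LPS and IL-4 at the same time in DMSO cells differed, by the limma test of the difference itself, at 13 of the 14 CREs. The largest log2 differences (LPS minus IL-4) toward LPS were 4.22 at the Cxcl2 promoter and 3.03 at Cxcl2 -4.7 kb, both at 2 h. At 1 h they were 3.12 at the Cxcl1 promoter, 2.80 at Cxcl1 +2.7 kb, 2.15 at Cxcl1 -15.5 kb, 1.86 at Cxcl1 -9.7 kb, 2.13 at Cxcl2 +5.3 kb, 2.04 at Cxcl3 -2.2 kb, 1.79 at Cxcl3 +2.2 kb and 1.56 at the Cxcl3 promoter. Toward IL-4 they were -2.96 at the Pf4 start CRE, -2.60 at Cxcl5 -11.9 kb and -1.69 at Cxcl5 -17.1 kb, all at 4 h. Each of the 13 was called in all 24 alternatives tried. Groups held 1 or 2 libraries, too few for a check of single libraries standing apart.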

How the results depend on the processing

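The single CKI libraries carry no replicate error, 172746 reads in the shallowest limit what can be seen there, and the causes of the changes below were not tested. Quantile normalization shifted the median of all CREs by -0.12 at 1 h and -0.15 at 4 h of LPS, -0.17 at 30 min of IL-4 and 0.10 for LPS against IL-4 at 30 min. Replicate numbers did not pair libraries (r of deviations -0.0873 to 0.0664 over 36 pairs of groups), and a replicate block left 12, 8 and 13 member CREs called after LPS, IL-4 and between both (27065, 11606 and 29540 of all CREs), and 1, 6 and 6 at consecutive LPS times (9639, 9612 and 4768 of all). After IL-4, 7568 CREs were called with a pseudocount of 20 and 19669 at a difference over 0.5. From 30 min to 1 h of LPS 2 member CREs were called with a pseudocount of 20, with quantile normalization and with all 18 libraries. Leaving out 1 library gave 24326 to 27361 CREs (members 12 to 13) after LPS, 10199 to 11862 (7 to 9) after IL-4 and 29128 to 29715 (13 to 14) between both. At consecutive times it gave 6104 to 10072 (1 to 2), 6033 to 10187 (1 to 7) and 2405 to 5306 (3 to 7). Leaving out a DMSO replicate gave 882554 to 1006217 CKI pairs (135 to 142) under LPS, 1101298 to 1116284 (236 to 257) under IL-4 and 123700 to 203423 (46 to 77) in UT. With quantile normalization, the mean of all compounds and the run as references, CKI pairs were 158622, 95513 and 39388 (members 26, 25 and 12) under LPS, 224399, 136587 and 42799 (73, 44 and 19) under IL-4, and 60402, 64467 and 44134 (35, 35 and 17) in UT, where leaving out libraries with the suffix b gave 89515 (20). As a change from UT they were 21642 (9) under LPS and 10778 (1) under IL-4, and, with quantile normalization added after seeing the data, 1235 (1) and 2837 (0). No target group was called (0 of 15) by permutation after quantile normalization or as a change from UT, where p38 at the Cxcl1 promoter reversed to -0.16. As a change from UT the difference from DMSO reversed under LPS for Apitolisib (-0.31, quantile -0.0547) and Momelotinib (-0.088) at the Cxcl3 promoter and for Losmapimod (-0.79), PH797804 (-0.23) and Apitolisib (-0.57) at the Cxcl1 promoter, and under IL-4 for Silmitasertib (-0.061, quantile -0.57) and MK5108 (-0.16, quantile -0.38) at the Cxcl3 promoter and Silmitasertib at the Cxcl1 promoter (quantile -0.015). Against the mean of all compounds it reversed under IL-4 for MK2461 at the Cxcl1 promoter (-0.89) and, at the Cxcl2 promoter, for PF04691502 (-0.46, run -0.30) and Pimasertib (-0.41, run -0.92), and in UT at the Cxcl2 promoter for Omipalisib (-0.70) and PF04691502 (-0.68, run -0.74).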
